A study of Mus musculus with 40 samples.

Results

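Neutrophil genes were followed among CD11b+ cells sorted from the brains of naive and glioma-bearing mice. The members are 10 genes named in advance by symbol, S100a8, S100a9, Retnlg, Ngp, Camp, Mmp8, Mmp9, Cxcr2, Ly6g and Trem1, out of 54513 rows in each of 3 expression tables, and each symbol matched 1 row in every table. The rule names the rows by symbol and uses no measured value, although the symbols were chosen with earlier results of these data known. Neutrophils are short-lived phagocytes that leave the bone marrow, enter blood and are recruited to inflamed tissue and to tumours by chemokines and cytokines. They carry CD11b, so a CD11b+ gate on brain tissue collects them together with microglia, monocytes, macrophages and some dendritic and natural killer cells. Their granule proteins are transcribed at successive stages of maturation in the marrow, while chemokine and pattern-recognition receptors mark mature cells, and so the genes need not move together. In sorted bulk RNA, fewer neutrophils and less RNA of these genes per neutrophil cannot be told apart.

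Levels are given as RPKM, read counts scaled by the exonic length of the gene and the mapped reads of the library, so that genes can be set side by side per length. The study asked how blocking integrin signalling with the peptide 7aaRGD, alone or with PD-1 blockade, changes glioma-associated myeloid cells. RNA was sequenced from CD11b+ cells of 3 experiments, and 35 of the 40 samples of the series had a column in the tables used here. In the GL261 experiment at 21 days post implantation (21 DPI), the groups were naive mice without a tumour, and mice with intracranial GL261 glioma that received vehicle (water), 7aaRGD or the control peptide 7aaRAE through osmotic pumps (peptides at 2 mg/ml), with 3 samples each and 2 C57BL/6 animals pooled per sample. GL261 is a murine glioma line, and in 7aaRAE the RGD motif that integrins bind is replaced by RAE. In the GL261 experiment at 28 DPI, 4 mice received vehicle and 4 received 7aaRGD, both with control IgG by the study's description. By the labels, 4 received anti-PD-1 (10 mg/kg) and 4 received 7aaRGD with anti-PD-1 (the combination), with 1 mouse per sample. In the anti-PD-1 group and in the combination group, only 3 of the 4 mice had a column and were used here. The sample labels name nude mice for the 28 DPI groups where the study's methods name C57BL/6. The study also describes the mice given anti-PD-1 as immunocompetent, and states that immunodeficient mice did not allow a test of the combination. The labels thus disagree with the study's text, and the disagreement is left as unsettled. In the U87-MG experiment at 21 DPI, Athymic Nude-Foxn1nu mice, which lack a thymus, carried the human glioma line U87-MG and received vehicle, 7aaRGD or 7aaRAE, with 3 samples each and 2 animals pooled per sample. All animals were adult males by the study's description, and no naive nude mice were analysed here. In the U87-MG table the columns carried only group names, so those samples are numbered by column order alone.

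The gate was checked on markers. Itgam, which encodes CD11b, averaged 115 RPKM in naive and 59.5 RPKM in vehicle samples at 21 DPI. Itgam was called higher in naive samples (limma, adjusted p under 0.05). The other 2 genes of this check, Itgb2 and Ptprc, were called lower. Over the 3 genes the median log2 difference was -0.53, in a comparison that called 82.9% of all genes tested. The tumour-bearing samples at 21 DPI also differed in their other myeloid markers. The sum of 9 microglia markers was 16198 to 16764 RPKM in naive samples and 1351 to 1971 RPKM in vehicle samples, and that of 9 monocyte markers was 31.9 to 39.4 RPKM and 1853 to 2518 RPKM, in the same order. Against these sums, the 10 neutrophil genes together reached 32.9 to 415 RPKM per sample over the 3 experiments, or 0.0112% to 0.150% of all protein-coding RPKM. S100a8 and S100a9 alone made up 38.7% to 85.9% of that sum. S100a8, S100a9, Mmp9 and Trem1 are also expressed by monocytes, so their levels need not come from neutrophils alone.

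The promoters of the members were read for binding motifs of C/EBP and PU.1, transcription factors that drive granulocyte and myeloid genes, so that the sequences before these genes can be read beside their levels. Promoter sequences came from RefSeq on the GRCm38.p6 build, in which 9 of the 10 members had an entry. TTGCNNAA (or TTNNGCAA on the other strand) was used for C/EBP and GAGGAAG (or CTTCCTC) for PU.1, in the 250 bases before the annotated start. The C/EBP letters were found in 5 of 9 members and in 9.56% of all 32851 promoters, and the PU.1 letters in 3 of 9 members and in 10.6% of all promoters. A member was counted if any of its annotated starts had a match, while the shares are over promoter entries. Ly6g had the C/EBP letters before start 1 and not before start 2. The 3 promoters below are shown because their genes, S100a8, S100a9 and Ngp, were the most abundant in naive samples. Capitals mark the match to either motif, and each run stops at the base before the mm10 transcript. In the order shown they lie at chr3:90668821-90668977 on the plus strand, chr3:90695722-90695971 on the minus strand and chr9:110419558-110419746 on the plus strand. S100a8 holds the PU.1 letters 171 bases before the start of the RefSeq entry, and S100a9 holds the C/EBP letters 236 bases before it. Ngp holds the C/EBP letters at 138 bases and again at 11 bases, past the end of the run shown.
S100a8: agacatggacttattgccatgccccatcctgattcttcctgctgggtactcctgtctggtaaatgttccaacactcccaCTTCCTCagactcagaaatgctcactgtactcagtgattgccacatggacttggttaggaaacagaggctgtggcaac
S100a9: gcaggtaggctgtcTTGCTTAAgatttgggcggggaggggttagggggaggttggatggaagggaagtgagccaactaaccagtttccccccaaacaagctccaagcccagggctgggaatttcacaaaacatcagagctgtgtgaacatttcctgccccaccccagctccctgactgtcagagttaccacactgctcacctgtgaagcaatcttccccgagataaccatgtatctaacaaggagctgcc
Ngp: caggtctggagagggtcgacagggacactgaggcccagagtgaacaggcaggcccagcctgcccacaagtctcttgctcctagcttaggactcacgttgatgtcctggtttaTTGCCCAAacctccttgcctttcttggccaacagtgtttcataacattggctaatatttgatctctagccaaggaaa
Retnlg held the C/EBP letters at 246 bases, and Mmp8 held both, with C/EBP at 19 and PU.1 at 220 bases. Ly6g, which has more than a single annotated start, held both as well. No match was found in Camp, Cxcr2 or Trem1. A match is a run of letters and was not tested as a binding site.

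Naive and vehicle samples at 21 DPI differed in most members, in both directions. The calgranulin genes S100a8 and S100a9 and the granule genes Ngp and Camp were 3.31-fold to 4.74-fold higher in CD11b+ cells of naive brains, while Trem1, a receptor that amplifies inflammatory signalling in neutrophils and monocytes, and Mmp8, the neutrophil collagenase, were lower. Of 9 members that passed the filter of a mean of 1 RPKM, 5 were called higher and 2 lower in naive samples (limma, Benjamini-Hochberg adjusted p under 0.05). These shares stand against a background in which 82.9% of the 9728 genes tested were called, 48.2% higher and 34.6% lower. Without overlap between the groups were 4 tested members in the higher and 2 in the lower direction, against 85.4% of all genes, 49.8% higher and 35.6% lower. Over the tested members the median log2 difference was 1.06, against 0.14 over all genes tested, and another scaling of the libraries moved the median of all genes by -0.16. Red blood cell markers were also called higher in naive samples, 2 of 2 tested, with a median log2 difference of 0.74. The part of blood in the member differences was not tested.

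S100a8 and S100a9 encode the subunits of calprotectin, a calcium-binding complex that fills the neutrophil cytosol, and lie next to each other on chromosome 3 (mm10, chr3:90668978-90670035 on the plus strand and chr3:90692632-90695721 on the minus strand). S100a8 was at 54.4, 72.0 and 75.8 RPKM in the 3 naive samples and at 33.2, 18.3 and 12 RPKM in the 3 vehicle samples. All naive values lay above all vehicle values, and vehicle sample 1 was the highest of its group. The naive mean was 67.4 ± 11.4 RPKM and the vehicle mean 21.2 ± 10.9 RPKM (SD, n = 3 each), a log2 difference of 1.73 (SE 0.312, limma adjusted p = 0.00101). S100a9 was at 157, 226 and 212 RPKM in naive and at 94.7, 41.1 and 30.6 RPKM in vehicle samples. The groups did not overlap, and vehicle sample 1 was again the highest. On the log2 scale S100a9 differed by 1.97 (SE 0.366, limma adjusted p = 0.00119).

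Ngp encodes neutrophilic granule protein and Camp the cathelicidin antimicrobial peptide, both stored in secondary granules and transcribed in maturing marrow neutrophils. They lie on chromosome 9 (chr9:110419747-110423012 on the plus strand and chr9:109847379-109849617 on the minus strand). Ngp was at 34.5, 65.5 and 57.3 RPKM in naive samples and at 12.9, 11.2 and 6.60 RPKM in vehicle samples. The lowest naive value was over the highest vehicle value, and naive sample 1 was the lowest naive sample. Ngp differed by 2.25 on the log2 scale (SE 0.278, limma adjusted p = 0.000103), the most of the members called higher. Camp was at 10.5, 25.8 and 19.0 RPKM in naive and at 4.58, 5.17 and 2.18 RPKM in vehicle samples. Its groups also did not overlap, and the order of the 3 naive samples was that of Ngp. For Camp the log2 difference was 1.94 (SE 0.339, limma adjusted p = 0.000828).

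The metalloproteinase genes Mmp8 and Mmp9 took different directions. Mmp8 (chr9:7558456-7568485) was at 2.74, 3.33 and 3.22 RPKM in naive and at 13.3, 7.02 and 6.33 RPKM in vehicle samples. Here the naive samples were the lower ones, without overlap, and the log2 difference was -1.21 (SE 0.228, limma adjusted p = 0.00128). Mmp9 (chr2:164940780-164955850), gelatinase B of tertiary granules, was at 4.23, 6.53 and 6.84 RPKM in naive and at 4.50, 2.02 and 1.06 RPKM in vehicle samples. Vehicle sample 1 lay above naive sample 1, so the groups overlapped. The log2 difference of Mmp9 was 1.06 (SE 0.329, limma adjusted p = 0.0166), and the call was lost without naive sample 2 or without naive sample 3 (adjusted p = 0.0563 and 0.0643) and without the filter (adjusted p = 0.0611).

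Trem1 (chr17:48232768-48246924) was at 0.978, 0.993 and 0.947 RPKM in naive samples and at 16.3, 12.9 and 25.7 RPKM in vehicle samples. The naive samples were close to each other and every vehicle sample was far above them. On the log2(RPKM + 1) scale the difference was -3.23 (SE 0.206, limma adjusted p = 1.81e-06), the largest of all members, and Trem1 passed the filter only through the vehicle group. The monocyte markers moved the same way, with 9 of 9 called lower in naive samples and a median log2 difference of -5.44. Only 7 of these 9 averaged 1 RPKM or more in naive samples, and the others passed the filter only through the vehicle group. The part of monocytes in the Trem1 difference was not tested. Relative to S100a8 of the same sample, Trem1 was 0.0125 to 0.018 in naive and 0.49 to 2.14 in vehicle samples.

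Retnlg, which encodes the secreted resistin-like gamma (chr16:48872621-48874496), was at 11.5, 11.9 and 14.8 RPKM in naive and at 31.5, 11.9 and 3.89 RPKM in vehicle samples. Vehicle sample 1 was the highest of all and sample 3 the lowest, and no difference was detected (log2 difference 0.10, SE 0.574, limma adjusted p = 0.873). Cxcr2 (chr1:74153989-74161246), the receptor through which ELR-type CXC chemokines draw neutrophils out of blood, was at 1.52 to 1.84 RPKM in naive and at 4.31, 2.61 and 0.772 RPKM in vehicle samples. Its naive values lay inside the spread of the vehicle values (log2 difference -0.30, SE 0.340, limma adjusted p = 0.433). Without vehicle sample 3, Cxcr2 was called lower in naive samples (-0.74, limma adjusted p = 0.00309). Ly6g (chr15:75155240-75159126), the surface protein by which mouse neutrophils are usually gated, was at 0.421, 1.12 and 1.30 RPKM in naive and at 0.0516 to 0.127 RPKM in vehicle samples. All 3 naive values were higher, but Ly6g was under the filter in every table. The exact 2-sided permutation test gave p = 0.1, the smallest that 3 against 3 samples allow, for a difference of 0.79 on the log2(RPKM + 1) scale. Without the filter, limma called Ly6g higher in naive samples (adjusted p = 0.0126). Ly6g belongs to a family of similar genes, so reads may be divided among its relatives and its level is uncertain.

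**Figure D1:**
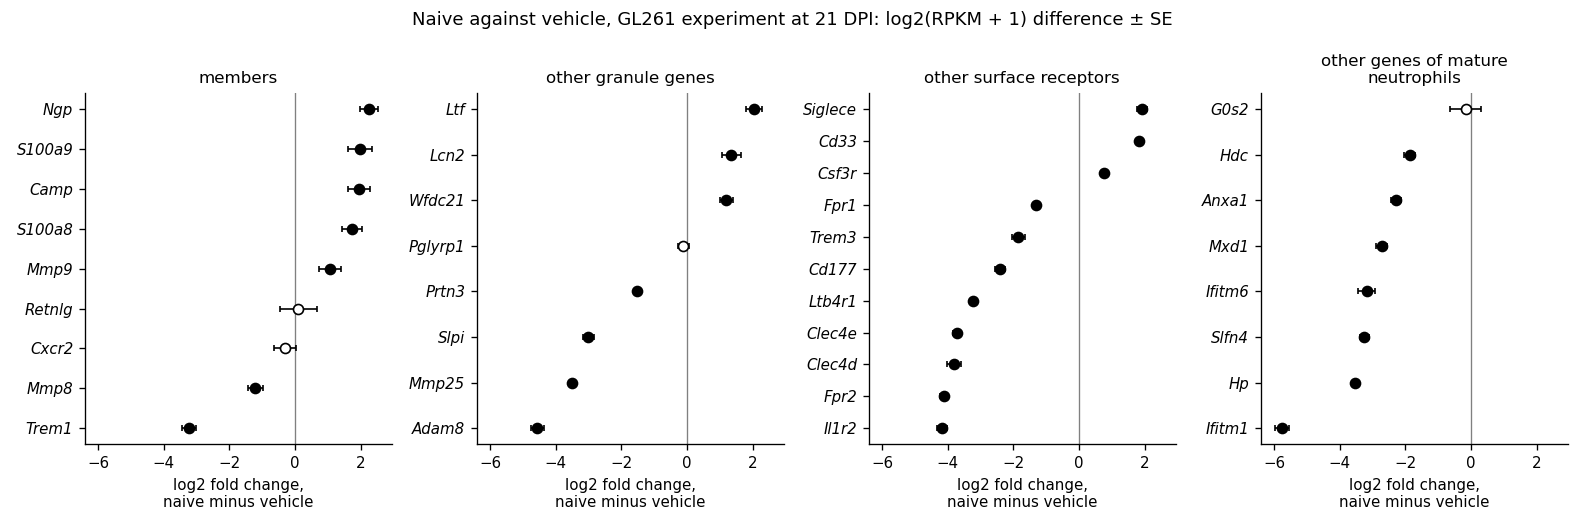
Log2 differences on the log2(RPKM + 1) scale between naive and vehicle CD11b+ cells at 21 DPI, for the members and for 3 further lists of neutrophil genes, one panel each. Points are fitted differences, bars are SE, and filled points passed an adjusted p of 0.05. Among the members, Ngp lies highest at 2.25 and Trem1 lowest at -3.23.

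In the same comparison 82.9% of all genes tested were called, 48.2% higher and 34.6% lower. The calls in each wider list of neutrophil genes stand against these shares. Of 8 other granule genes tested, 3 were called higher in naive samples, namely Ltf (lactoferrin, log2 difference 2.04, 14.1 against 2.65 RPKM), Lcn2 (the siderophore-binding lipocalin, 1.35, 7.13 against 2.24 RPKM) and Wfdc21 (1.20, 3.69 against 1.05 RPKM), with limma adjusted p-values of 9.72e-05, 0.00269 and 0.000472. Another 4 were called lower, Adam8 (-4.56), Mmp25 (-3.50), Slpi (-3.01) and Prtn3 (-1.52), and the median of the list was -0.81. Adam8, Mmp25 and Prtn3 averaged 0.607, 0.568 and 0.147 RPKM in naive samples and passed the filter only through the vehicle group, as did Il1r2, Fpr2 and Ifitm1 below. The primary granule genes Mpo, Elane and Ctsg, which promyelocytes transcribe in the marrow, were at or under 0.424 RPKM in every sample of this table. Of 11 further surface genes, 3 were called higher (Siglece 1.92, Cd33 1.83, Csf3r 0.75) and 8 lower, among them Il1r2 (-4.19) and the formyl peptide receptor Fpr2 (-4.11), with a median of -2.40. None of 8 genes of mature neutrophils was called higher and 7 were called lower, with a median of -2.95, including Ifitm1 (-5.77) and Hp (haptoglobin, -3.53). In naive samples only 8 genes of the surface list and 5 of the mature list averaged 1 RPKM or more. The other genes tested passed the filter only through the vehicle group. They were thus likely to lie lower in naive samples, and they are in these counts and medians. Many of these surface and maturation genes are also transcribed by monocytes. The microglia markers moved the same way as Siglece, Cd33 and Csf3r, with 9 of 9 called higher in naive samples (median log2 difference 3.41). In the U87-MG vehicle samples Csf3r, Siglece and Cd33 averaged 217, 77.5 and 47.6 RPKM, where Ly6g averaged 0.22 RPKM. The part of microglia in these differences was not tested. Among transcription factors of the lineage, Cebpd (1.37) and Cebpa (0.48) were higher, and Cebpb (-3.07) and Spi1 (-0.38) lower, in naive samples. Of the CXCR2 ligands, Cxcl2 was lower in naive samples (2.51 against 11.1 RPKM, log2 difference -1.76, limma adjusted p = 3.38e-05), and Csf3, the growth factor of neutrophils, was listed at 0 in every sample of this table.

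**Figure D2:**
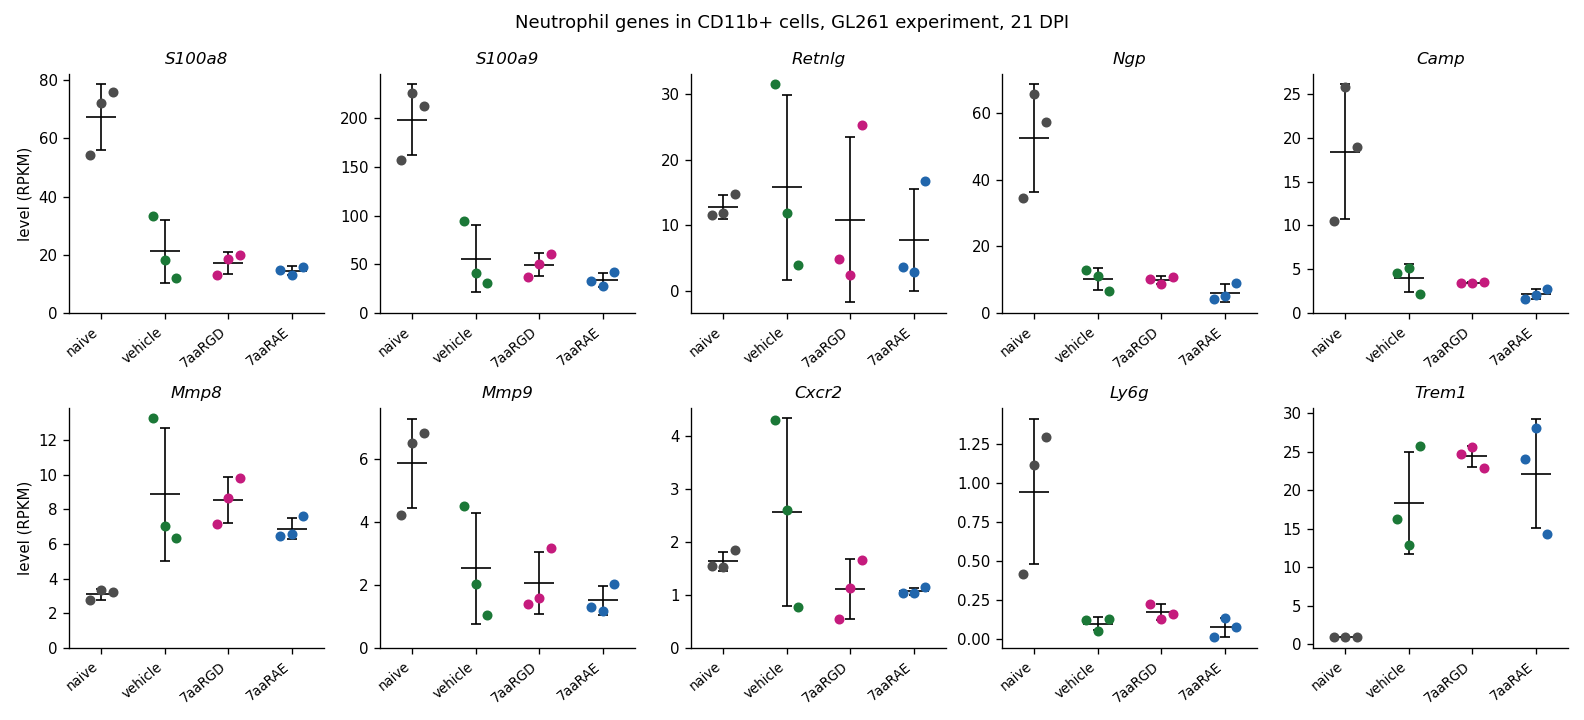
RPKM of the 10 members in each CD11b+ sample of the GL261 experiment at 21 DPI, by group, one panel per gene with its own linear axis. Points are samples (3 per group), lines the mean and SD. S100a8, S100a9, Ngp and Camp are highest in the naive group, and Trem1 is at 0.947 to 0.993 RPKM there against 12.9 to 28.1 RPKM in the tumour-bearing groups.

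At 21 DPI the peptides were not followed by a detectable change in any member. The comparisons of 7aaRGD and of 7aaRAE with vehicle share the vehicle samples. With 7aaRGD, limma called 0 of 9 members, with 0 at an unadjusted p under 0.05 and a lowest adjusted p of 0.436, where 0.148% of 9441 genes were called and 13.6% had an unadjusted p under 0.05. With 7aaRAE, limma called 0 of 9, with 2 at an unadjusted p under 0.05, where 0% of all genes were called and 6.37% had an unadjusted p under 0.05. Those 2 were Ngp (log2 difference -0.69) and Camp (-0.62), each with an adjusted p of 0.718.

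S100a8 was at 13.1, 18.5 and 20.1 RPKM with 7aaRGD and at 14.8, 13 and 15.9 RPKM with 7aaRAE. These values lay inside or beside the vehicle range of 12 to 33.2 RPKM, and all 3 groups overlapped. S100a9 averaged 49.4 ± 11.8 RPKM with 7aaRGD and 34.1 ± 7.17 RPKM with 7aaRAE, against 55.5 ± 34.4 RPKM with vehicle (SD, n = 3 each). Retnlg was at 4.75, 2.40 and 25.3 RPKM with 7aaRGD and at 3.65, 2.88 and 16.7 RPKM with 7aaRAE. Sample 3 was the high one in both peptide groups, and sample 1 in the vehicle group. Trem1 was at 24.7, 25.6 and 22.9 RPKM with 7aaRGD and at 24.0, 28.1 and 14.3 RPKM with 7aaRAE, overlapping the vehicle samples. Trem1 differed by 0.45 on the log2 scale with 7aaRGD (SE 0.262, limma adjusted p = 0.485).

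The peptides themselves, which differ in the RGD motif, were compared at the same dose and time over 9 members. None was called (limma) and 2 had an unadjusted p under 0.05, where 0% of all genes were called and 5.52% had such a p. Camp was at 3.42 to 3.54 RPKM with 7aaRGD and at 1.60, 2.05 and 2.78 RPKM with 7aaRAE. The groups did not overlap, as for 11.4% of all genes. The log2 difference was 0.52, with a 95% interval of 0.02 to 1.03 (limma adjusted p = 0.89). Ngp differed by 0.69, with an interval of 0.09 to 1.29 (limma adjusted p = 0.857). The intervals of S100a8 (0.21, from -0.45 to 0.87), S100a9 (0.51, from -0.29 to 1.32), Trem1 (0.18, from -0.41 to 0.77) and Retnlg (0.23, from -1.78 to 2.24) all held 0. The interval of Retnlg was the widest of the members.

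At 28 DPI the members varied widely between mice of the same group, and 1 gene, Retnlg, was called. It was lower with the combination of 7aaRGD and anti-PD-1 than with vehicle. Retnlg was at 22.3, 64.9, 37.9 and 61.0 RPKM in the 4 vehicle mice, at 31.7, 7.73, 21.8 and 32.7 RPKM with 7aaRGD, at 9.89, 23.2 and 79.8 RPKM with anti-PD-1 and at 9.01, 4.63 and 2.93 RPKM with the combination. All 3 combination mice lay under all vehicle and all anti-PD-1 mice, with the lower pair also under the lowest 7aaRGD mouse, while anti-PD-1 sample 3 was the highest of all 14. The group means were 46.5 ± 20.1 RPKM for vehicle (n = 4), 23.5 ± 11.6 for 7aaRGD (n = 4), 37.6 ± 37.2 for anti-PD-1 (n = 3) and 5.53 ± 3.14 for the combination (n = 3, all SD).

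The combination differed from vehicle in Retnlg by -2.86 on the log2 scale (SE 0.63, 0.138-fold, limma adjusted p = 0.00272). Under all 16 other settings the call held, with differences of -3.22 to -2.24 and adjusted p-values of 0.000686 to 0.0162. It was 1 member called of 9, in a comparison that called 43.3% of 9737 genes, 25.8% in the lower direction, and in which 48.8% of genes did not overlap. Against anti-PD-1 alone the difference was -2.19 (SE 0.674, limma adjusted p = 0.149), without overlap, where 0.0411% of genes were called and 21.5% did not overlap. Against 7aaRGD alone it was -1.84 (SE 0.63, limma adjusted p = 0.0355), where 36.6% of genes were called, and this call was lost under 8 of 16 other settings, among them the fits without 7aaRGD mouse 1, 3 or 4 or without combination mouse 2 or 3 (limma adjusted p = 0.0623 to 0.132). The interaction of the 2 treatments, which asks whether the combination departs from the sum of its parts, was -1.17 for Retnlg (SE 0.891, limma adjusted p = 0.753). No member was called for the interaction (limma, 0 at an unadjusted p under 0.05, where 0% of all genes were called and 8.15% had such a p).

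Markers of other cells are given beside the Retnlg difference, first those of eosinophils, a further granulocyte that carries CD11b. Prg2, the major basic protein, was at 0.5 to 3.15 RPKM with vehicle, 0.225 to 0.409 with 7aaRGD, 0 to 8.70 with anti-PD-1 and 0 to 0.222 with the combination. The sum of the 4 eosinophil markers was 9.20 to 24.4 RPKM with vehicle and 11.7 to 14.2 RPKM with the combination, with most of it from Siglecf, and none of the 2 markers tested was called. Epx, eosinophil peroxidase, was at or under 0.0873 RPKM in every 28 DPI sample. The sum of 9 microglia markers was 1567 to 2236 RPKM with vehicle and 2397 to 2545 RPKM with the combination, with 6 of 9 called higher, and the sum of 9 monocyte markers was 244 to 502 RPKM and 521 to 796 RPKM, with 5 called higher. The part of these shifts in the Retnlg difference was not tested.

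**Figure D3:**
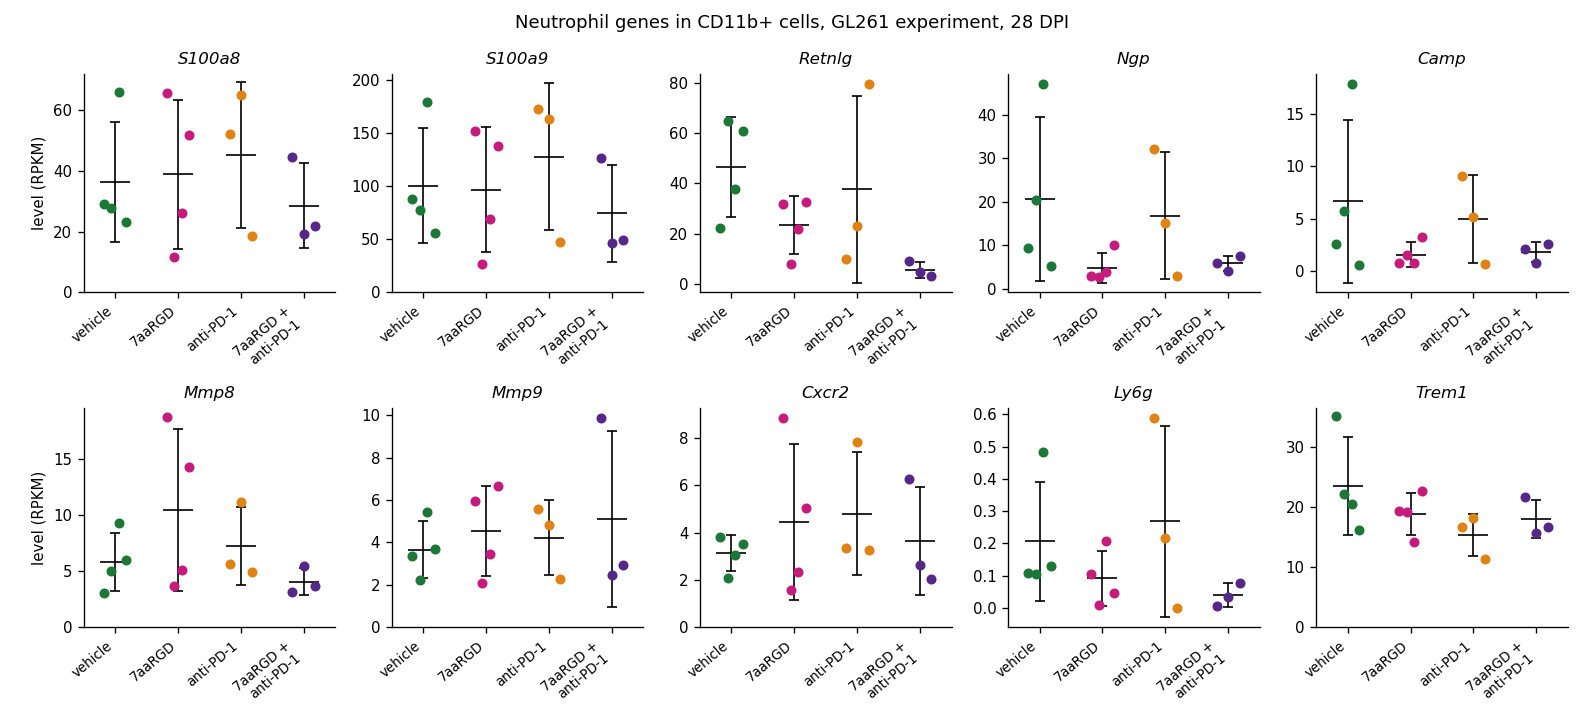
RPKM of the 10 members in each CD11b+ sample of the GL261 experiment at 28 DPI, by treatment, one panel per gene with its own linear axis. Points are mice (4, 4, 3 and 3), lines the mean and SD. Retnlg is at 2.93 to 9.01 RPKM with the combination and at 22.3 to 64.9 RPKM with vehicle, while the groups overlap in S100a8 and S100a9.

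The calgranulin genes gave no call at 28 DPI. S100a8 was at 29.0, 27.9, 65.9 and 23.2 RPKM with vehicle, at 65.8, 11.6, 26.3 and 52.0 RPKM with 7aaRGD, at 52.2, 65.0 and 18.6 RPKM with anti-PD-1 and at 44.6, 19.4 and 21.8 RPKM with the combination. Every group held a high and a low mouse, and all groups overlapped. S100a9 ran from 27.0 to 179 RPKM over the 14 mice in the same order of mice within each of the vehicle and 7aaRGD groups. Against vehicle, the log2 difference of S100a8 was -0.05 with 7aaRGD (95% interval -1.18 to 1.08), 0.25 with anti-PD-1 (-0.96 to 1.47) and -0.31 with the combination (-1.53 to 0.91).

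The granule genes were as variable. Ngp was at 9.38, 20.4, 47.2 and 5.29 RPKM with vehicle, at 2.95, 2.66, 3.83 and 9.96 RPKM with 7aaRGD, at 32.1, 15.2 and 2.97 RPKM with anti-PD-1 and at 5.99, 3.96 and 7.49 RPKM with the combination. Vehicle sample 3 was the highest of all mice, and 3 of the 4 7aaRGD mice lay under every vehicle mouse. With 7aaRGD, Ngp differed from vehicle by -1.61 on the log2 scale (SE 0.659, unadjusted p = 0.0288, limma adjusted p = 0.275), the only member of 9 under 0.05 before adjustment, where 14.6% of all genes were. Limma called 0 members with 7aaRGD, and 0.647% of all genes. Camp was at 2.59, 5.71, 17.9 and 0.579 RPKM with vehicle and at 0.778, 1.53, 0.771 and 3.27 RPKM with 7aaRGD. The vehicle mice spanned the 7aaRGD mice, and the log2 difference was -1.10 (SE 0.671, limma adjusted p = 0.461).

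Mmp8 was at 3.04, 5.05, 9.25 and 6.03 RPKM with vehicle, at 18.7, 3.71, 5.10 and 14.3 RPKM with 7aaRGD, at 5.65, 11.2 and 4.89 RPKM with anti-PD-1 and at 3.10, 5.45 and 3.67 RPKM with the combination. The 2 highest values were 7aaRGD mice 1 and 4, which were also the highest of their group in S100a8. Mmp9 ran from 2.11 to 9.88 RPKM and Cxcr2 from 1.59 to 8.87 RPKM over all mice, with overlap between all groups. Ly6g was at 0 to 0.588 RPKM and under the filter. Its combination mice, at 0.00573 to 0.0785 RPKM, all lay under the vehicle mice, at 0.106 to 0.484 RPKM. In that comparison 48.8% of all genes tested did not overlap, and without the filter limma did not call Ly6g. Values down to -0.422 were set to 0 in these data, so differences at this level are uncertain.

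Trem1 was at 35.2, 22.2, 20.5 and 16.1 RPKM with vehicle, at 19.3, 19.2, 14.2 and 22.7 RPKM with 7aaRGD, at 16.6, 18.1 and 11.4 RPKM with anti-PD-1 and at 21.6, 15.6 and 16.7 RPKM with the combination. The groups overlapped, and vehicle sample 1 stood highest. With anti-PD-1 the log2 difference was -0.55 (SE 0.23, unadjusted p = 0.0316, limma adjusted p = 0.1). Limma called 0 of 9 members with anti-PD-1, with 1 at an unadjusted p under 0.05, where 23.1% of all genes were called, 36.2% had such a p and 32.4% did not overlap. Without vehicle sample 4 the count was 1, Trem1 (-0.70, limma adjusted p = 0.0453).

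The wider lists of neutrophil genes are given at 28 DPI against the shares of all genes called, 23.1% with anti-PD-1 and 43.3% with the combination. Of 11 further surface genes, 6 were called higher with anti-PD-1, among them Fpr2 (1.68) and Fpr1 (1.17), and 2 were called lower, Il1r2 (-2.07) and Cd33 (-0.56). The combination gave 6 higher, with Fpr2 at 2.14 and Fpr1 at 1.69, and 2 lower, with Il1r2 at -1.97. Both comparisons share the vehicle mice, and 5 of 9 monocyte markers were called higher in each, with the other 4 not called. Among the other granule genes, 3 were called higher with anti-PD-1 (Slpi 1.14, Adam8 0.95, Mmp25 0.90) and Prtn3 lower (-1.15). With the combination, Slpi (1.57) and Mmp25 (1.15) were called higher, and Prtn3 (-1.24) and Lcn2 (-1.31, limma adjusted p = 0.0353) lower. Of 11 genes of mature neutrophils tested, 1 was called in each comparison, Slfn4 (1.45 with anti-PD-1 and 1.26 with the combination). Of 6 transcription factors, 1 was called in each, Cebpa (-0.37 and -0.56).

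In the U87-MG experiment no member was called in any comparison. Against vehicle, all 9 tested members had fitted log2 differences over 0 with 7aaRGD, with a median of 0.92 against -0.0026 over all genes tested, of which 49.2% were over 0. The third 7aaRGD sample was the highest of all 9 samples in 8 of the 10 members. Without that sample, a setting chosen after its values were seen, 8 of 9 differences stayed over 0 and the median was 0.29. Limma called 0 of 9, with 3 at an unadjusted p under 0.05, where 0% of 9665 genes were called and 3.77% had such a p. Those 3 were Trem1, Camp and Retnlg. Of these, Camp and Retnlg passed the filter only through the peptide groups (vehicle means of 0.719 and 0.805 RPKM). Both were thus likely to lie over 0, and they are among the 9 differences and in the median given above.

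S100a8 was at 8.74, 9.07 and 13.5 RPKM with vehicle, at 13, 12.5 and 49.9 RPKM with 7aaRGD and at 13.7, 21.8 and 5.23 RPKM with 7aaRAE. The third 7aaRGD sample stood apart and the other values overlapped. S100a9 showed the same sample at 239 RPKM, with the other 8 samples at 14.6 to 62.6 RPKM. Ngp was at 4.09, 0.426 and 1.49 RPKM with vehicle, at 6.48, 2.04 and 26.2 RPKM with 7aaRGD and at 6.36, 6.80 and 1.21 RPKM with 7aaRAE. Here too the third 7aaRGD sample was highest and the groups overlapped. The log2 difference of Ngp with 7aaRGD was 1.70 (SE 0.808, limma adjusted p = 0.941).

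Retnlg was at 0.678, 0.674 and 1.06 RPKM with vehicle, at 1.44, 2.15 and 6.53 RPKM with 7aaRGD and at 2.46, 4.17 and 1.07 RPKM with 7aaRAE. Both peptide groups lay over the vehicle samples without overlap, the lowest 7aaRAE sample by little. Trem1 was at 2.42, 3.41 and 3.41 RPKM with vehicle, at 3.94, 8.11 and 9.81 RPKM with 7aaRGD and at 4.84, 10.4 and 6.82 RPKM with 7aaRAE. Again every peptide sample was over every vehicle sample, in comparisons that share the vehicle samples. The log2 differences of Retnlg were 1.11 with 7aaRGD (limma adjusted p = 0.941) and 0.89 with 7aaRAE (0.654). Those of Trem1 were 0.96 (limma adjusted p = 0.941) and 0.99 (0.497). Without overlap were 10.8% of all genes with 7aaRGD and 16.5% with 7aaRAE, 4.43% and 7% in the higher direction. Retnlg and Camp passed the filter only through the peptide groups, since their vehicle means were 0.805 and 0.719 RPKM. With 7aaRAE limma called 0 of 9 members, with 1 at an unadjusted p under 0.05, where 0.0103% of genes were called and 7.72% had such a p.

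The wider neutrophil lists and the other markers gave no call in the U87-MG experiment (limma). With 7aaRGD, 4 of 5 other granule genes, 7 of 11 surface genes and 6 of 7 genes of mature neutrophils had differences over 0, with medians of 0.43, 0.07 and 0.15, and 0 of them had an unadjusted p under 0.05. With 7aaRAE, 3 of 5, 3 of 11 and 3 of 7 were over 0, with medians of 0.35, -0.29 and -0.18, and 4 had an unadjusted p under 0.05. These were Il1r2 (1.48), over 0, and Pglyrp1 (-0.81), Trem3 (-0.41) and Ifitm6 (-1.26), under 0. The monocyte markers summed to 278 to 375 RPKM with vehicle, 265 to 601 RPKM with 7aaRGD and 269 to 549 RPKM with 7aaRAE, with 4 of 9 and 1 of 9 over 0 (medians -0.02 and -0.62). For the microglia markers the sums were 8561 to 10653, 6559 to 10918 and 7279 to 9053 RPKM, with 1 of 9 and 0 of 9 over 0 (medians -0.19 and -0.40). Gzma, a granzyme of natural killer cells, differed from vehicle by -1.20 with 7aaRGD and -2.38 with 7aaRAE (limma adjusted p = 0.941 and 0.187). The part of these markers in the Retnlg and Trem1 values was not tested.

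**Figure D4:**
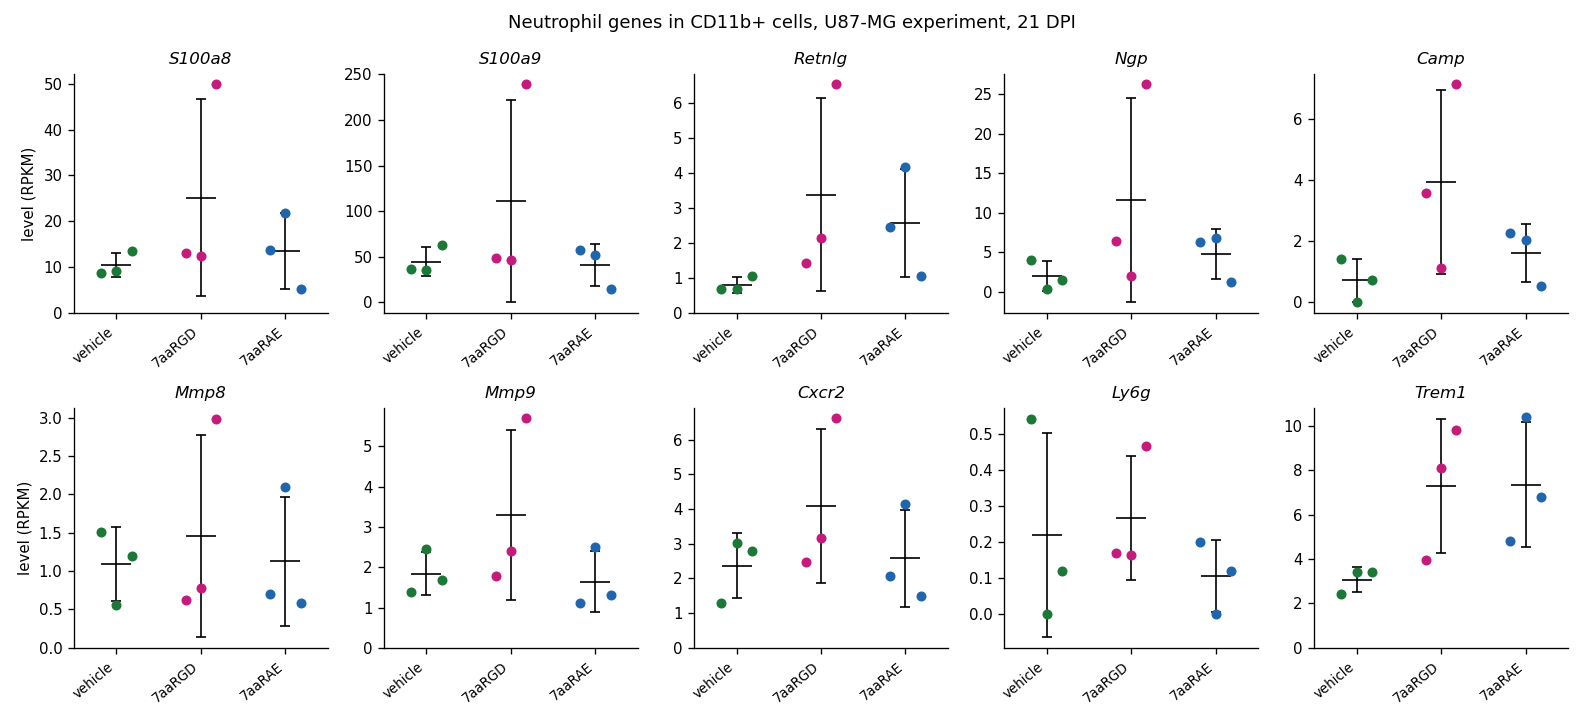
RPKM of the 10 members in each CD11b+ sample of the U87-MG experiment at 21 DPI, by treatment, one panel per gene with its own linear axis. Points are samples (3 per group), lines the mean and SD. The third 7aaRGD sample is at 49.9 RPKM in S100a8 and 239 RPKM in S100a9, far from the rest.

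Between the peptides, limma called 0 of 9 members, with 0 at an unadjusted p under 0.05 (3.38% of all genes) and 0% of all genes called. The log2 difference of 7aaRGD from 7aaRAE was 0.73 for S100a8 (95% interval -0.56 to 2.02), 1.18 for S100a9 (-0.36 to 2.72), 0.76 for Ngp (-1.06 to 2.59), 0.79 for Camp (-0.35 to 1.94) and -0.03 for Trem1 (-0.73 to 0.67). The remaining members Mmp8, Mmp9 and Cxcr2 were at 0.559 to 6.63 RPKM in this experiment with overlap between all groups. Ly6g was at 0 to 0.541 RPKM.

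Correlations of log2(RPKM + 1) around the group means are given as descriptions over the 12, 14 and 9 samples of the 3 experiments, and the points of an experiment share its table and its scaling. S100a8 and S100a9 correlated at 0.97, 0.99 and 0.97, and Ngp and Camp at 0.90, 0.96 and 0.98. Other members followed the calgranulin genes as closely in some experiments. At 21 DPI S100a8 correlated with Mmp8 at 0.94, with Mmp9 at 0.93 and with Cxcr2 at 0.92, against 0.73, 0.87 and 0.76 at 28 DPI. The ratio of S100a9 to S100a8 stayed between 2.13 and 4.80 over all samples. Retnlg followed S100a8 at 0.68 at 21 DPI, 0.11 at 28 DPI and 0.98 in the U87-MG experiment. Trem1 and S100a8 correlated at -0.94 over all 12 samples at 21 DPI and at -0.47 around the group means. Over all 12 samples, Mmp8 and S100a8 gave -0.63, unlike the value around the means. Ly6g followed S100a8 at 0.23, 0.52 and 0.20, at levels near 0.

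**Figure D5:**
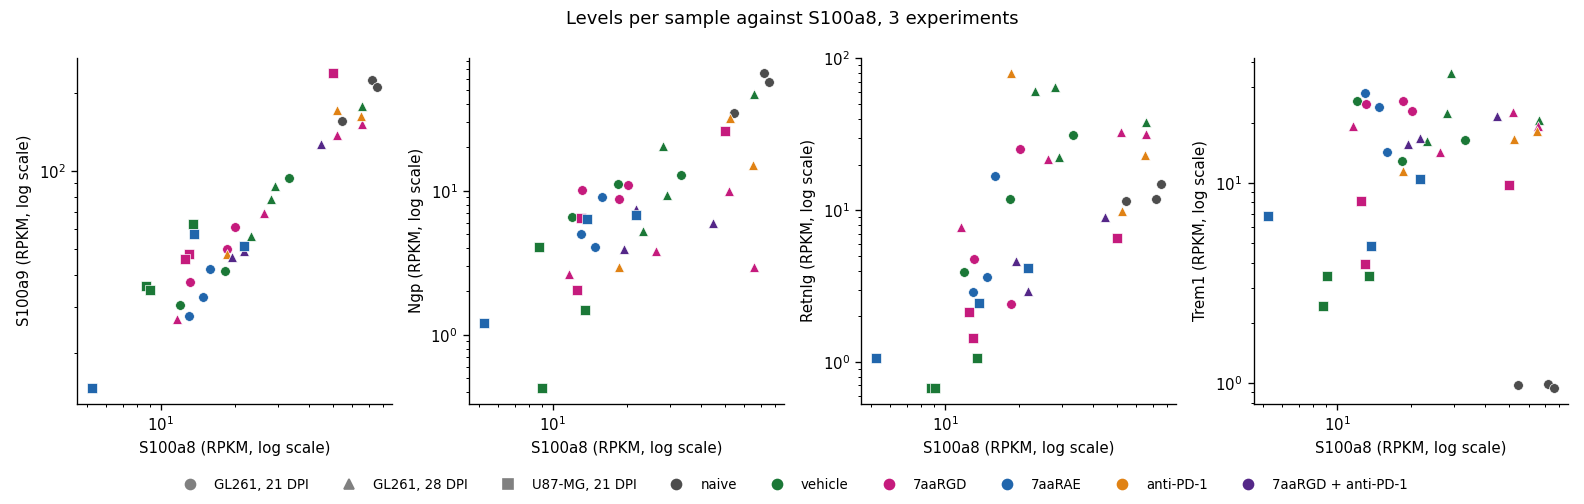
RPKM of S100a9, Ngp, Retnlg and Trem1 against RPKM of S100a8 in the 35 CD11b+ samples, on log axes. Colours are groups and marker shapes experiments. S100a9 keeps a ratio of 2.13 to 4.80 to S100a8, and Trem1 in the naive samples lies far under the tumour-bearing samples at higher S100a8.

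Genes whose profile was most like the mean profile of the 9 tested members were ranked by Pearson's r over the samples of each experiment. At 21 DPI the members did not share a single profile, as S100a8 correlated with Trem1 at -0.94 and with Mmp8 at -0.63. The mean profile there mixes opposite shifts, and a gene like it need not follow the members as a set. At 21 DPI (n = 12) the list was led by Folr2 (0.96), Hist1h1c (0.95), Txndc5 (0.94), Trpv4 (0.93) and Aven (0.93), in samples where the naive group differs from the rest in most genes. At 28 DPI (n = 14) it was led by Ear2 (0.88), Hspbp1 (0.85), Bud23 (0.85), Lcn2 (0.84) and Wfdc21 (0.84), and the last 2 are neutrophil granule genes of the wider list. In the U87-MG experiment (n = 9) it was led by Mark3 (0.91), Inf2 (0.90), Dnaja1 (0.90), Ptgs2 (0.89) and Pcid2 (0.89). No gene was among the leading 5 of more than 1 experiment.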

How the data were processed

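Strand-specific mRNA libraries were sequenced from CD11b+ cells sorted from perfused brain hemispheres. The processing notes of the submitters name Trimmomatic, STAR and HTSeq 0.11.1 with the mm10 build. The deposited tables hold RPKM to which, from the values, a constant of 2 had been added by the authors. Here 2 was subtracted and the 3.13% to 8.78% of values per sample that fell under 0 were set to 0 (lowest -0.422). Multiplied by exonic length, the values of each sample summed to nearly the same total. Depth is unknown, since no counts were recovered, so no counting interval is given. The tables were normalized separately, and no test was made across them.

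limma 3.58.1 in R 4.3.3 (trend) was fitted to log2(RPKM + 1) for protein-coding genes that averaged 1 RPKM or more, with Benjamini-Hochberg adjustment and a threshold of 0.05. All tumour-bearing groups of a table were fitted together, and naive with vehicle alone. Fold changes on this scale understate those of low genes. NOISeq, the tool of the study, was not used here. Replicate numbers were not used to pair the samples in the main fit. Residual correlations were over 0.1 for 1 of 18 same-numbered pairs in the 21 DPI table and for 3 of 19 in the 28 DPI table. The lowest were -0.772 and -0.499, in the same order, so some same-numbered samples varied in opposite directions. The residuals of the GL261 tables spanned 7 of 8 and 9 of 10 possible dimensions, against 6 of 6 for U87-MG, so p-values in the GL261 tables may be too small, and the cause was not tested. The genes named are the members, all 10, and fixed lists of other neutrophil and cell type genes, of which those called were given. Members and lists were chosen with earlier results of these data known. An item of the surface gene list is not reported here.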

Additional observations from a re-analysis of the deposited data

Results flagged for a closer look

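In 3 of 22 groups of 4 values, 1 mouse lay far from the other 3. There the gap to the nearest value over the range of the group passed Dixon's critical value for 4 samples. The values were the 10 members and their sum in the vehicle and 7aaRGD mice at 28 DPI, the only groups of 4 samples. For independent, normally distributed values chance gives this in about 1 in 20 groups. These values share the same mice and are not independent, so that rate is only a rough guide. S100a8 was at 65.9 RPKM in vehicle sample 3 and at 23.2 to 29.0 RPKM in the other vehicle mice (gap over range 0.864). Ly6g in the same mouse was at 0.484 RPKM against 0.106 to 0.129 RPKM (0.94). Ngp was at 9.96 RPKM in 7aaRGD sample 4 and at 2.66 to 3.83 RPKM in the other 7aaRGD mice (0.84).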

How the results depend on the processing

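Counts of members called were recomputed with other pseudocounts, filters, scalings, gene sets and fits and without each sample in turn. In 11 of 13 comparisons the count stayed within 1.5 times that reported, and none of the 15 member differences recomputed (those called or without overlap) changed sign. With the combination against 7aaRGD, 1 member, Retnlg, was called. The count was 0 with a pseudocount of 5 (log2 difference -1.36, limma adjusted p = 0.0592), 0 without a filter (-1.84, 0.0666) and 0 with the replicate number as a block (-1.65, 0.0947). Leaving out 1 sample gave 0 to 2: 0 without 7aaRGD sample 1, 3 or 4 or combination sample 2 or 3, and 2, Retnlg and Mmp8, without 7aaRGD sample 2 (Mmp8 -1.30, adjusted p = 0.0322). With anti-PD-1 against vehicle, 0 members were called, and leaving out 1 sample gave 0 to 1, the 1 being Trem1 without vehicle sample 4. The cause was not tested. The replicate block changed no other count of members, and in the U87-MG table the columns carry no numbers, so no block was fitted there.

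Counts over all genes moved more. They were 8060 for naive against vehicle (5287 to 9916 over the settings), 14 (0 to 125), 0 (0 to 2) and 0 (0 to 7) for 7aaRGD and 7aaRAE against vehicle and against each other at 21 DPI. At 28 DPI they were 63 (0 to 93) for 7aaRGD, 2245 (1355 to 2379) for anti-PD-1 and 4215 (2942 to 4843) for the combination against vehicle, 4 (0 to 26) against anti-PD-1, 3561 (2549 to 3820) against 7aaRGD and 0 (0 to 3) for the interaction. In the U87-MG table they were 0 (0 to 2), 1 (0 to 32) and 0 (0 to 3).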
